A study of Rattus norvegicus with 6 samples.

Results

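The genes described are 10 that write, read or erase DNA methylation: the writers Dnmt1, Dnmt3a and Dnmt3b, the partners Uhrf1 and Uhrf2, the erasers Tet1, Tet2 and Tet3, and the readers Mbd1 and Mbd2. They were taken by gene name, and all 10 had a row among the 19088 rows of the gene table. Of these, 14775 rows, including all 10, had enough counts to be tested. RNA was sequenced from cultured primary cells of the nucleus pulposus, the soft centre of the spinal disc, taken from Sprague Dawley rats. The rShh group (n = 3) had received recombinant Sonic hedgehog, dissolved in DMSO, at 200 ng/ml for 48 h. The Control group (n = 3) had received DMSO for 48 h. All 6 samples were grown with fetal bovine serum, and the labels name no modified gene. The labels give no sex or age of the rats. They leave unsaid which samples share a culture or an animal. A p-value here thus sets the group difference against the spread between the samples of a group, and that spread may be technical only.

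DNA methylation is the addition of a methyl group to cytosine, mostly where a cytosine precedes a guanine (CpG). DNMT1 copies the pattern onto the new strand after replication, and UHRF1 brings it there by binding sites that are methylated on one strand only. DNMT3A and DNMT3B place new methyl groups. The TET enzymes oxidise methylcytosine, which leads to its removal, and MBD1 and MBD2 bind methylated CpG and recruit repressor complexes. Sonic hedgehog is a secreted ligand that acts on cells of the developing and postnatal disc. RNA levels were analysed, and methylation itself was not analysed here.

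The libraries held 65116846 to 70031072 gene counts in the rShh group and 50758195 to 55501124 in the Control group. Mitochondrial genes held 3.25% to 3.36% of the rShh counts and 1.97% to 2.28% of the Control counts. The Hedgehog target and receptor gene Ptch1 was at 32.6 ± 1.61 CPM (counts relative to library size, scaled by TMM, mean ± SD, n = 3) in rShh cells and 12.5 ± 1.65 in Control cells. Gli1, another Hedgehog target, had 25, 35 and 30 counts in rShh libraries and 22, 0 and 0 in Control libraries and did not pass (edgeR adjusted p = 0.200). The groups also differed in Y-chromosome transcripts. Ddx3, Eif2s3y and Kdm5d, on chromosome Y, had 2235 to 7120 counts in each rShh library and 0 in each Control library. This difference coincided with the treatment in all 6 libraries. The presence of Y transcripts, and any difference in sex, animal or culture, thus cannot be told apart from the ligand in any comparison below. Of 12 nucleus pulposus markers, 9 had a row, and their summed level was 967 to 988 CPM in rShh libraries and 330.3 to 348.6 CPM in Control libraries. Acan, at 586 ± 14.5 CPM in rShh cells and 56.5 ± 7.97 in Control cells, and Hif1a carried most of it, and the other 7 summed to 137 to 148 CPM in rShh libraries and 201 to 207 in Control libraries. Acan, Hif1a and Sox9 rose, Col2a1, Krt8, Cd24 and Pax1 fell, Foxf1 was tested and not called, and Krt18 was near 0 in both groups. Of 6 leukocyte markers, 3 had a row, and they summed to 12.9 to 15.5 CPM in rShh libraries and 10.9 to 14.1 in Control libraries. That sum was nearly all Cd14, while Csf1r and Cd68 averaged below 0.5 CPM in both groups, and edgeR called 0 of the 3 (0 at an unadjusted p below 0.05, and 0 by DESeq2). Of 6 endothelial markers 3 had a row and 2 were tested. Tek passed, at 1.76 ± 0.0788 CPM in rShh cells and 5.71 ± 0.906 in Control cells. Vwf, with 26, 23 and 7 counts in rShh libraries and 29, 8 and 0 in Control libraries, did not pass. Tie1 had 0, 0 and 4 counts in rShh libraries and 4, 0 and 0 in Control libraries and was not tested.

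Promoter sequences are shown for Dnmt1 and Uhrf1, the pair of members that act together at replicating DNA and whose RNA was higher in rShh cells. RefSeq windows of 300 bases, 250 before to 50 after an annotated start, were found for 9 of the 10 members, with all but Dnmt3b matched by symbol. In the lines below, capitals mark matches to the E2F site (TTTCCCGC, TTTCGCGC, TTTGCCGC or TTTGGCGC), searched on both strands. E2F factors drive genes of S phase. The motif letters overlap each other in no printed match. The window of Dnmt1 lies at chr8:27762792-27763091 and that of Uhrf1, the third of 3 annotated starts, at chr9:1222936-1223235 (GRCr8, minus strand for Dnmt1 and plus strand for Uhrf1, written 5′ to 3′ along the gene). These positions belong to GRCr8 and cannot be set against the gene table's own coordinates given below, whose build is unstated.
Dnmt1: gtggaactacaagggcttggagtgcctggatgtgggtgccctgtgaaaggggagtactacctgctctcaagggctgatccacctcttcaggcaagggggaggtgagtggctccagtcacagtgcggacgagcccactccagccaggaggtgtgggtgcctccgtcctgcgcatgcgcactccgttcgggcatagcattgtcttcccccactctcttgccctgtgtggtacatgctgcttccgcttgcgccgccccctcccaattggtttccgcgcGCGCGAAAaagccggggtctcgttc
Uhrf1: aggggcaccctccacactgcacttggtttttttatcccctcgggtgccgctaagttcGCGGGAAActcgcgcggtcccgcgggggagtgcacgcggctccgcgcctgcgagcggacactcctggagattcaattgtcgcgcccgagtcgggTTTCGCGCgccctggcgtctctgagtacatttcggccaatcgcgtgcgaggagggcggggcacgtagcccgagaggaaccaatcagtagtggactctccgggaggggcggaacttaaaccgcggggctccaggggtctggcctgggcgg
The Dnmt1 window held 1 E2F match, which began at position 26 after the start and read as GCGCGAAA on the printed strand. The Uhrf1 window held 2 E2F matches, at positions -193 and -99, and the other 2 Uhrf1 windows held none. No other member window held these E2F letters, whereas 2.14% of all 33469 RefSeq windows did. Counted per gene over any window, 2 of 9 members and 2.37% of all 27457 genes held them. So did 9 of the 15 matched DNA replication genes described below. The GLI site GACCACCCA, the binding sequence of the Hedgehog transcription factors, was in no window of the members and in 0.385% of all windows. The printed windows held 17 CpG in Dnmt1 and 35 in Uhrf1, against a median of 7 over all windows. Mbd2 and Tet2 held 39 each and Uhrf2 held 28. Of the members not called below, Dnmt3a held 21, Mbd1 25, the Tet1 windows 3 to 16 and the Tet3 windows 3 to 23. The printed Uhrf1 window is the one with E2F matches, and the other 2 Uhrf1 windows held 8 and 13 CpG. A match is a run of letters, not evidence of binding, and RefSeq starts may not be those used in these cells.

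Among the 10 members, 5 rose in rShh cells, 0 fell and 5 did not pass the test. Those that rose were Dnmt1, Uhrf1, Uhrf2, Tet2 and Mbd2, by 1.298- to 2.10-fold. Of all 14775 genes tested, 60.3% were called at an adjusted p below 0.05 by edgeR's quasi-likelihood test, namely 31.5% higher and 28.8% lower in rShh cells. The called share of the members, 5 of 10, was not above the 60.3% of all genes, and all 5 were on the higher side. At an unadjusted p below 0.05 the count of members that fell was also 0, as it was by DESeq2 and by limma on FPKM. The median log2 change was 0.41 over the members and 0.01 over all genes tested. The CPM ranges of the groups were separate for the same 5 members, as they were for 68.1% of all genes tested. Levels summed over the 10 genes were 306 to 315 CPM in rShh libraries and 234 to 242 CPM in Control libraries. In bulk RNA, a change in the share of cells that express a gene and a change in RNA per cell cannot be told apart.

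**Figure D1:**
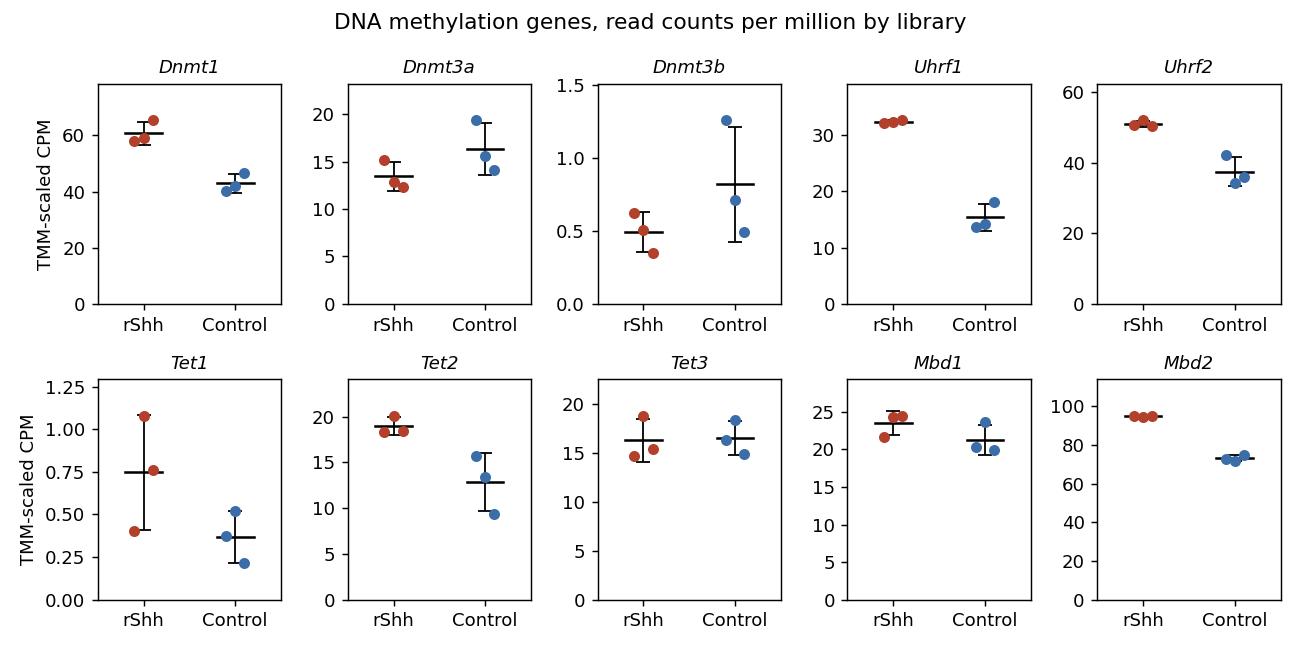
TMM-scaled CPM of each of the 10 genes in the 3 rShh and 3 Control libraries. Points are libraries, the horizontal line is the group mean and the bar 1 SD. For Dnmt1, Uhrf1, Uhrf2, Tet2 and Mbd2 all rShh points lie above all Control points, while the groups overlap for the other 5.

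Dnmt1, the maintenance methyltransferase (ENSRNOG00000039859, chromosome 8, 21922515 to 21968495, minus strand, in the deposited coordinates), had 57.9, 59.0 and 65.4 CPM in rShh libraries and 40.2, 42.0 and 46.7 CPM in Control libraries. The lowest rShh library thus lay above the highest Control library. The difference was 1.42-fold (log2 change 0.50, SE 0.08, 95% interval 0.32 to 0.68, edgeR adjusted p = 0.000343). Control replicate 3 was the highest library of its group, as rShh replicate 3 was of the other.

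Uhrf1, which recognises sites methylated on one strand and recruits DNMT1 (chromosome 9, 10738222 to 10757954, minus strand), had the largest change among the 5 members called. It reached 32.0, 32.3 and 32.5 CPM in rShh libraries, against 13.7, 14.2 and 18.2 CPM in Control libraries. The rShh libraries were nearly equal to each other, and Control replicate 3 stood above the other Control libraries without reaching them. The difference was 2.10-fold (log2 change 1.07, SE 0.11, 95% interval 0.82 to 1.32, edgeR adjusted p = 1.93e-05).

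Uhrf2, a relative of Uhrf1 that binds hydroxymethylated DNA (chromosome 1, 248228496 to 248291978, plus strand), had 50.8, 52.0 and 50.3 CPM in rShh libraries and 42.2, 34.4 and 36.0 CPM in Control libraries. The groups did not overlap, and the Control libraries were more spread. It rose 1.36-fold (log2 change 0.44, SE 0.08, edgeR adjusted p = 0.00109).

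The methyltransferases that place new marks showed lower means in rShh cells, but neither passed. Dnmt3a (chromosome 6, 28235695 to 28340577, plus strand) had 15.2, 12.8 and 12.3 CPM in rShh libraries and 19.3, 15.6 and 14.1 CPM in Control libraries. Control replicate 3 lay within the range of the rShh libraries, and Control replicate 2 just above it. The log2 change was -0.28 (SE 0.14, 95% interval -0.59 to 0.03, edgeR adjusted p = 0.102). It passed with upper quartile scaling (log2 change -0.35, edgeR adjusted p = 0.0488) and without Control replicate 3 (log2 change -0.38, edgeR adjusted p = 0.0374), whereas without Control replicate 1 the log2 change was -0.15 (edgeR adjusted p = 0.338). Over all alternatives its adjusted p ran from 0.0374 to 0.338. Dnmt3b (chromosome 3, 149131785 to 149208786, plus strand), an enzyme mainly of early embryos, had few counts, with 40, 35 and 23 in rShh libraries and 71, 38 and 25 in Control libraries. Control replicate 1 was the high one, and the groups overlapped (log2 change -0.74, SE 0.51, 95% interval -1.86 to 0.39, edgeR adjusted p = 0.233). Without Control replicate 1 the Dnmt3b log2 change was -0.29 (edgeR adjusted p = 0.670).

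Among the TET erasers, Tet2 was the one that passed. Tet2 (chromosome 2, 238720835 to 238803024, minus strand) had 18.3, 20.1 and 18.5 CPM in rShh libraries and 15.7, 13.4 and 9.40 CPM in Control libraries. Every rShh library was above every Control library, and Control replicate 3 was the lowest. The difference was 1.47-fold (log2 change 0.56, SE 0.16, 95% interval 0.20 to 0.92, edgeR adjusted p = 0.0128). The call was lost with limma on log2(FPKM + 1) over all rows, where the limma adjusted p was 0.0579. It was also lost when the same counts were tested among transcripts (edgeR adjusted p = 0.0555).

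Tet3 (chromosome 4, 115066309 to 115157263, minus strand) had 14.7, 18.8 and 15.5 CPM in rShh libraries and 16.4, 18.4 and 14.9 CPM in Control libraries. The groups overlapped (log2 change -0.02, SE 0.12, 95% interval -0.30 to 0.26, edgeR adjusted p = 0.890). Its direction turned when rShh replicate 1, rShh replicate 3 or Control replicate 2 was left out, with log2 changes of 0.048, 0.015 and 0.058 in that order. Tet1 (chromosome 20, 27366213 to 27437427, plus strand), the TET enzyme best known from embryonic stem cells, had few counts, with 26, 75 and 50 counts in rShh libraries and 21, 28 and 11 in Control libraries. rShh replicate 1 lay within the Control range (log2 change 1.01, SE 0.56, 95% interval -0.24 to 2.26, edgeR adjusted p = 0.144). Without rShh replicate 2, the highest, the Tet1 log2 change was 0.65 (edgeR adjusted p = 0.460). For Tet1 and Dnmt3b the intervals include both 0 and a change of 2-fold.

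Of the readers, Mbd2, which brings the NuRD repressor complex to methylated DNA (chromosome 18, 65814026 to 65885114, plus strand), had 94.9, 94.5 and 94.9 CPM in rShh libraries and 72.8, 71.7 and 74.7 CPM in Control libraries. Both groups were tight and separate, and Mbd2 rose 1.298-fold (log2 change 0.38, SE 0.05, 95% interval 0.26 to 0.50, edgeR adjusted p = 0.000168). Mbd1 (chromosome 18, 70248713 to 70263164, plus strand) had 21.6, 24.4 and 24.4 CPM in rShh libraries and 20.3, 23.6 and 20.0 CPM in Control libraries. The groups overlapped through Control replicate 2 (log2 change 0.14, SE 0.10, 95% interval -0.08 to 0.36, edgeR adjusted p = 0.241). None of the 10 members overlapped another row of the gene table on either strand.

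**Figure D2:**
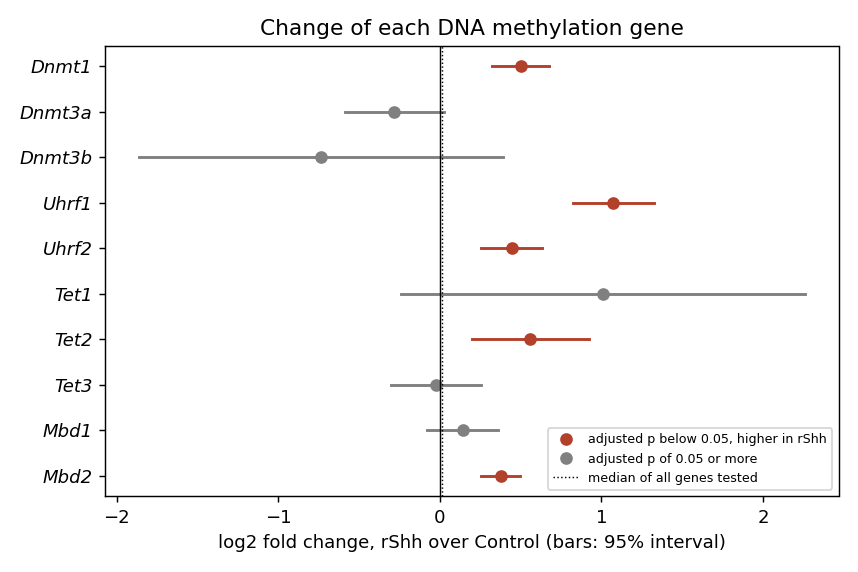
Log2 fold change of each gene, rShh over Control, from edgeR, with its 95% interval. Red points passed at an adjusted p below 0.05 and grey points did not, and the dotted line is the median of all genes tested at 0.01. The wide bars are those of Dnmt3b and Tet1, the members with the fewest counts.

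The order of the genes by level per transcript length, in FPKM, was led by Mbd2, at 48.9 ± 0.698 in rShh cells and 37.4 ± 0.774 in Control cells. Uhrf2 followed at 12.0 ± 0.348 FPKM in rShh cells and 8.77 ± 1.05 in Control cells. In rShh cells Dnmt1 came next at 8.65 ± 0.641 FPKM, its range overlapping that of Mbd1 at 8.02 ± 0.664, and Uhrf1 stood at 7.04 ± 0.160. In Control cells Mbd1 at 7.22 ± 0.653 FPKM came before Dnmt1 at 6.07 ± 0.427, with no overlap, and Uhrf1 at 3.32 ± 0.509 overlapped Dnmt3a at 3.19 ± 0.561. Dnmt3a, Tet3 and Tet2 were at 2.63, 2.26 and 2.06 FPKM in rShh cells, where each overlapped its neighbour. In Control cells Tet3 and Tet2 were at 2.28 and 1.39 FPKM and did not overlap. Dnmt3b and Tet1 closed the order at 0.122 and 0.102 FPKM in rShh cells, with overlapping ranges, and at 0.205 and 0.0501 FPKM in Control cells.

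Ratios between members of a family, taken within each library, do not depend on scaling between libraries. Dnmt1 made up 72.4%, 76.1% and 78.8% of the summed Dnmt1, Dnmt3a and Dnmt3b FPKM in rShh libraries and 58.2%, 64.9% and 69.7% in Control libraries. The ranges were separate, and the Dnmt3a share was correspondingly 23.2% ± 2.87 in rShh cells and 33.6% ± 4.81 in Control cells. Tet2 made up 48.8%, 44.1% and 47.1% of the summed Tet FPKM in rShh libraries, against 42.3%, 35.7% and 32.7% in Control libraries. The Tet3 share was 51.1% ± 1.57 in rShh cells and 61.8% ± 4.98 in Control cells, again separate, and the Tet1 share was at most 3.01% in any library. Uhrf1 was 36.9%, 36.5% and 37.5% of the summed Uhrf FPKM in rShh libraries and 23.1%, 27.7% and 31.9% in Control libraries. The Mbd1 share of Mbd1 and Mbd2 was 14.1% ± 0.842 in rShh cells and 16.2% ± 1.51 in Control cells. For these separate ratios the two-sided exact permutation p was 0.1, the smallest that 3 samples against 3 allow, and 0.157 after adjustment over the 11 ratios computed.

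DNMT1 and UHRF1 serve replicating DNA, and genes of DNA replication moved with the groups. Of 18, all but Gins2 rose, 17 in number, with a median log2 change of 1.14. The 17 of 18 called stand beside 60.3% of all genes tested, and the 17 higher beside 31.5%. The summed level of the 18 was 567 to 584 CPM in rShh libraries and 275 to 285 CPM in Control libraries. Rrm2, which makes deoxynucleotides, was at 58.6 ± 4.30 CPM in rShh cells and 10.6 ± 0.429 in Control cells, and the helicase subunit Mcm5 was at 34.6 ± 0.792 CPM in rShh cells and 11.0 ± 1.06 in Control cells. Mcm4, of the same helicase, was at 49.0 ± 2.51 CPM in rShh cells and 14.5 ± 2.33 in Control cells. The log2 ratio of Uhrf1 to the mean of these genes was 0.44, 0.45 and 0.42 in rShh libraries and 0.39, 0.42 and 0.80 in Control libraries, so the groups overlapped (difference -0.10, exact permutation p = 1). The ratio of Dnmt1 to the same mean was 1.295, 1.318 and 1.431 in rShh libraries and 1.95, 1.98 and 2.16 in Control libraries. It was lower in every rShh library (difference -0.68, exact permutation p = 0.1). The Uhrf1 difference depended on Control replicate 3, without which it was 0.032, while that of Dnmt1 lay between -0.72 and -0.62 whichever library was left out. The part of cell division in the members' changes was not tested.

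**Figure D3:**
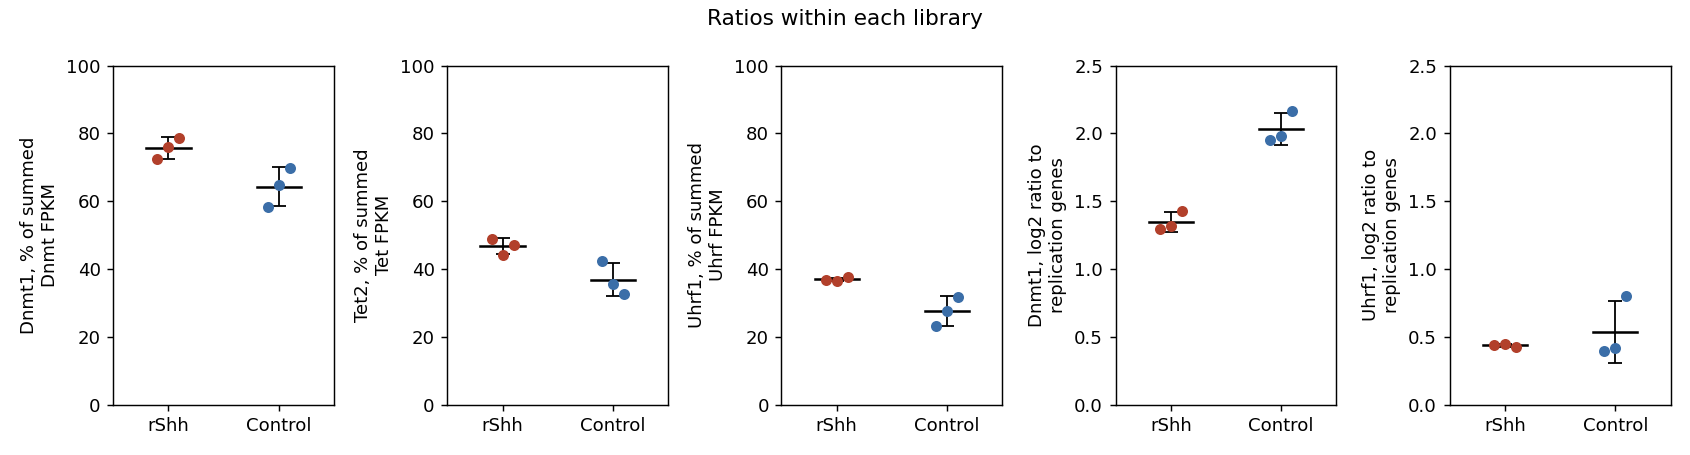
Ratios within each library for rShh and Control, as shares of the summed FPKM of a gene family in percent and as log2 ratios to the mean of 18 DNA replication genes. Points are libraries, lines are means and bars 1 SD. The rShh points are above the Control points for the 3 shares and below them for Dnmt1 relative to replication genes, and overlap them for Uhrf1.

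The transcript table held 13 transcripts of the 10 genes, 1 each for 7 genes and 2 each for Dnmt1, Dnmt3b and Uhrf1. Of 11 tested with edgeR, 4 rose, 0 fell and 7 missed the threshold, where 45.1% of all 18180 transcripts were called, 23.8% higher and 21.3% lower. At an unadjusted p below 0.05, 6 were higher and 1 lower, and limma on FPKM called 4 higher and 0 lower. The 2 Dnmt1 transcripts both had 38 exons. The shorter, ENSRNOT00000067325 with 4863 nt, had 1164, 1224 and 984 counts in rShh libraries and 320, 526 and 386 in Control libraries. It rose by a log2 change of 1.13 (SE 0.22, edgeR adjusted p = 0.00676). The longer, ENSRNOT00000064932 with 5917 nt, had 2568, 2886 and 3297 counts in rShh libraries and 1954, 1726 and 1981 in Control libraries, and missed the threshold (log2 change 0.31, SE 0.12, edgeR adjusted p = 0.0732). Its value passed with the replicate number as a block (edgeR adjusted p = 0.0317).

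The shorter transcript made up 31.2%, 29.8% and 23.0% of the Dnmt1 counts in rShh libraries and 14.1%, 23.4% and 16.3% in Control libraries. This share was chosen after the counts were seen. rShh replicate 3 and Control replicate 2 overlapped (difference 10.1 percentage points, exact permutation p = 0.2). The transcripts share most of their sequence, so the division of reads between them is an estimate of the authors' processing. Of the Uhrf1 transcripts, ENSRNOT00000083848 carried all but 4 counts, and those 4 lay in rShh replicate 1. For Dnmt3b the transcript of 22 exons had 31, 15 and 19 counts in rShh libraries and 69, 38 and 25 in Control libraries (log2 change -1.30, SE 0.53, edgeR adjusted p = 0.0939). The transcript of 20 exons had 9, 20 and 4 counts in rShh libraries and 2, 0 and 0 in Control libraries, too few to be tested.

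Of 10 partners of maintenance methylation listed, 8 were tested: 5 rose, Trim28 fell and Cdca7l and Setdb1 missed the threshold. The 6 of 8 called stand beside 60.3% of all genes, and the 5 higher beside 31.5%. The median log2 change was 0.51. Hells, a remodeler that opens chromatin for methylation, was at 5.40 ± 0.422 CPM in rShh cells and 1.47 ± 0.278 in Control cells. Pcna, the replication clamp that holds DNMT1, was at 69.8 ± 2.80 CPM in rShh cells and 28.6 ± 0.770 in Control cells. Usp7, a deubiquitinase that stabilises DNMT1 and UHRF1, was at 90.9 ± 2.01 CPM in rShh cells and 62.3 ± 6.09 in Control cells. Pcna and Hells are themselves genes of dividing cells.

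Of 8 other genes listed by family beside the readers, 4 rose, 1 fell and 3 were not called, and the median log2 change was 0.50. Whether each binds methylated DNA was not examined here. DESeq2 called 3 higher and 1 lower. The 5 of 8 called by edgeR are close to the share of all genes, 60.3%. Mbd3, a NuRD subunit of the same family as Mbd2, fell to 68.5 ± 5.24 CPM in rShh cells, against 132.7 ± 17.4 in Control cells. Zbtb38, a zinc finger reader, was at 36.1 ± 0.747 CPM in rShh cells and 22.0 ± 3.80 in Control cells, and Mbd5 at 14.7 ± 0.636 in rShh cells and 9.41 ± 1.03 in Control cells. Among 11 NuRD subunits, 1 rose, 4 fell and 6 were not called, and the median log2 change was -0.10. The 5 of 11 called stand beside 60.3% of all genes, and the 4 lower beside 28.8%. Rbbp7, a histone-binding subunit on chromosome X, rose to 213 ± 9.53 CPM in rShh cells, against 133.5 ± 6.79 in Control cells. Mta1 fell to 75.8 ± 0.872 CPM in rShh cells, against 106 ± 7.98 in Control cells, and the deacetylase Hdac2 to 97.3 ± 3.20 in rShh cells, against 116 ± 5.69 in Control cells.

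Genes that remove oxidised or damaged bases, or that serve or restrain TET enzymes, were called in 11 of 16 tested, beside 60.3% of all genes. Among them 3 rose and 8 fell, while 28.8% of all genes fell, and the median log2 change was -0.24. Gadd45b and Gadd45g, stress-induced genes linked to demethylation, fell to 93.4 ± 7.18 and 285 ± 15.6 CPM in rShh cells, against 288.5 ± 50.9 and 689 ± 128 CPM in Control cells. Apex1, an endonuclease of base excision repair, fell to 41.8 ± 1.59 CPM in rShh cells, against 67.0 ± 5.49 in Control cells. Tdg, the glycosylase that excises oxidised methylcytosine, was chosen after its values were seen, and was at 42.1 ± 1.94 CPM in rShh cells and 61.5 ± 3.17 in Control cells (log2 change -0.55, SE 0.07). Several of these genes also serve general repair or stress responses.

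In the folate and methionine cycles, which make the methyl donor, 4 of 13 rose, 5 fell and 4 were not called, and the median log2 change was -0.12. The 9 of 13 called stand beside 60.3% of all genes. Those that rose included Tyms, at 21.2 ± 0.637 CPM in rShh cells and 10.9 ± 1.08 in Control cells. It makes thymidylate for DNA synthesis rather than methyl donor. Shmt2, which feeds the folate pool in mitochondria, fell to 177 ± 2.27 CPM in rShh cells, against 278 ± 21.0 in Control cells. Mat2a, the synthase of the methyl donor S-adenosylmethionine, was chosen after its values were seen and was at 154 ± 3.53 CPM in rShh cells and 191 ± 15.9 in Control cells (log2 change -0.31, SE 0.07).

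Imprinted genes, whose parental copies are told apart by methylation, went both ways. Of 13 tested, 5 rose, 6 fell and 2 were not called, beside 31.5% and 28.8% of all genes that rose and fell. Log2 changes ran from -3.03 for Igf2, a fetal growth factor, to 0.90 for Peg3, both chosen after their values were seen, around a median of 0.18. Igf2 was near the floor, with 0, 12 and 3 counts in rShh libraries and 66, 20 and 16 in Control libraries (SE 0.98). Grb10, an adaptor that restrains growth signalling, fell to 195 ± 2.92 CPM in rShh cells, against 398 ± 11.5 in Control cells, and Ndn to 12.4 ± 0.852 in rShh cells, against 39.0 ± 1.06 in Control cells. Impact rose to 113 ± 2.25 CPM in rShh cells, against 66.2 ± 4.001 in Control cells. Of 12 germline genes that methylation silences in body cells, 5 had a row. These summed to 0.543 to 0.641 CPM in rShh libraries and 0 to 0.301 in Control libraries. All 5 were near the floor, and the highest, Sycp3, averaged 0.328 CPM in rShh cells and 0.0589 in Control cells. One of them, Sycp3, had enough counts to be tested and did not pass (edgeR adjusted p = 0.0772), though it was higher at an unadjusted p below 0.05. DESeq2 was run without the count filter and called 1 of the 5 higher. Rhox5, on chromosome X and chosen after its values were seen, had 5, 25 and 12 counts in rShh libraries and 0 in each Control library.

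**Figure D4:**
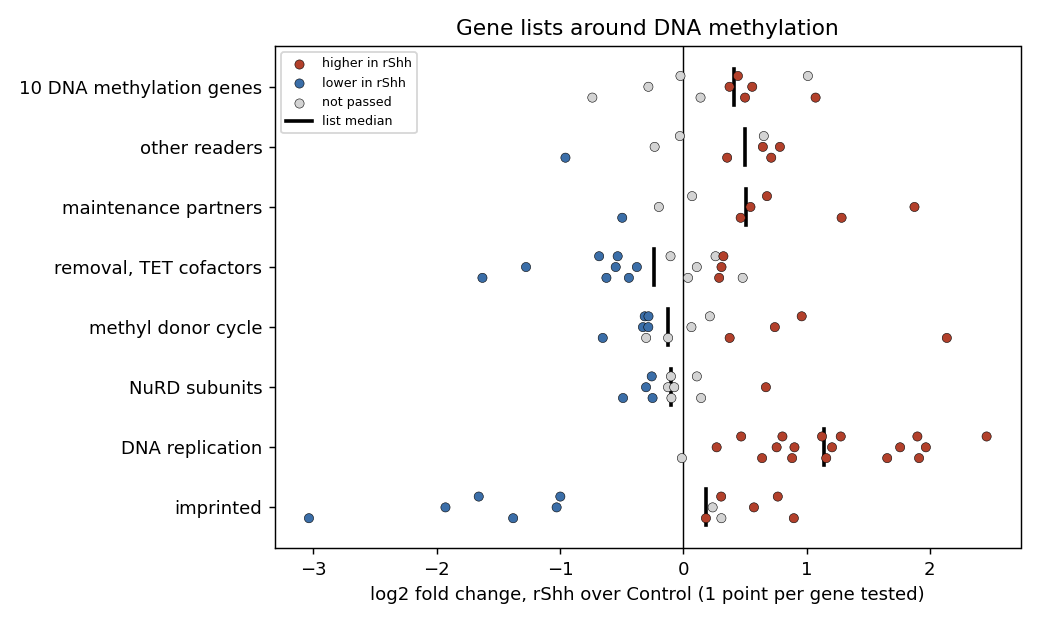
Log2 fold change, rShh over Control, of each gene tested in 8 lists, with the list median as a black bar. Red points rose and blue points fell at an adjusted p below 0.05. DNA replication genes lie furthest to the right as a list, with a median of 1.14, and the genes of removal and TET cofactors have a median of -0.24.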

How the data were processed

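Per the labels' protocols, poly(A) RNA was sequenced as paired-end reads from libraries with dUTP marking. The submitters' processing notes name HISAT2 2.0.4, StringTie 1.3.4d, cutadapt 1.9, edgeR and DESeq2; what each did, the strand setting and the genome build of the tables remain not given in the sources used here. The authors deposited whole-number counts, not normalized, and FPKM values per gene and per transcript, per the file headers.

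Counts were filtered by filterByExpr (minimum count 10), scaled by TMM and tested, two-sided, with edgeR 4.0.16 in R 4.3.3 (glmQLFit, glmQLFTest, group as the only term), with Benjamini-Hochberg adjustment over all genes or all transcripts and a threshold of 0.05. SEs were derived from the F statistic. The test code was run on simulated counts with the same spread for all genes and both groups, and fewer changed genes than here. That check does not cover the setting of these data. Alternatives used DESeq2 1.42.0 and limma 3.58.1 (trend) on log2(FPKM + 1), a scale that understates the change of low genes. Depth was 50758195 to 70031072 counts per library. The chi-square per degree of freedom between libraries was 10.5 to 12.1 within the rShh group and 20.6 to 50.5 within the Control group. Both were above counting noise alone, and the Control libraries differed more from each other. Markers and the 13 gene lists were fixed by name, and up to 3 called genes with the smallest p were named per list, except 1 gene that is not reported here. The members and lists were chosen with earlier results of these data known.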

Additional observations from a re-analysis of the deposited data

How the results depend on the processing

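The count of 5 members higher in rShh cells was 5 under every alternative, including each library left out (5 to 5), except limma on log2(FPKM + 1) without a filter, where Tet2 was lost and it was 4. The count of members lower was 0 except with upper quartile scaling, where it was 1 (Dnmt3a). Leaving out 1 library gave 0 to 1 lower members, the 1 being Dnmt3a without Control replicate 3. Over all genes, leaving out 1 library gave 4162 to 4878 higher and 3676 to 4374 lower. Among transcripts it gave 4 to 5 higher and 0 to 0 lower. Tet3, never called, ranged from -0.137 to 0.058 with 1 library left out and reversed without rShh replicate 1 (0.048), rShh replicate 3 (0.015) and Control replicate 2 (0.058). The log2 ratio of Dnmt1 to replication differed by -0.78 against Pcna alone and by -0.72 to -0.62 when 1 library was left out. For Uhrf1 the difference was -0.20 against Pcna alone and -0.17 to 0.032 with 1 library left out, and the Uhrf1 share differed by 7.19 to 11.6 percentage points. The cause of these shifts was not tested.

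The labels number the replicates alike in both groups but do not say that the numbers pair samples, so they were not taken as pairs. Correlations of deviations were -0.0751, -0.00974 and -0.00936 for same-numbered libraries and -0.0592 to 0.0676 for differently numbered ones. With 3 libraries per group, these values cannot show whether pairs exist. With the replicate block, edgeR called 5 members higher and 0 lower, 4470 genes higher and 3970 lower, and 5 member transcripts higher. Scaling choices shifted the median log2 change of all genes by -0.0665 (upper quartile) at most, smaller in size than the changes of the 5 members called. Tet1 and Dnmt3b had 11 to 75 counts per library and the widest intervals of the members.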
